A study of Mus musculus with 6 samples.

Results

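The genes examined here encode 40 dioxygenases that use alpha-ketoglutarate (αKG) as co-substrate, among 16448 genes listed for cardiomyocytes (CMs) of *Cpt1b*-deficient mice. They were selected by gene symbol from what their products are known to do, with earlier results of these data known but by a rule that used no measured value, and the HIF prolyl hydroxylases were left out. All 40 symbols were found in the table. The RNA-seq data came from 3 CM samples of CtrlCre mice carrying αMHC-Cre (genotype αMHC-Cre pos/+;Cpt1b +/+), and 3 of Cpt1bcKO mice, in which the same Cre met floxed *Cpt1b* alleles (αMHC-Cre pos/+;Cpt1b fl/fl). All mice were C57BL/6 and 8 to 12 weeks old, and both groups carried Cre, so that an effect of Cre itself is common to both. The αMHC (*Myh6*) promoter directs Cre to CMs. *Cpt1b* encodes the muscle isoform of carnitine palmitoyltransferase 1, which lets long-chain fatty acids enter mitochondria. The labels do not say whether a sample was 1 mouse or a pool. For differentially expressed genes of these genotypes, a figure caption of the paper gives 3 mice each. P values measure the spread between these samples only.

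αKG-dependent dioxygenases couple the oxidation of a substrate to the decarboxylation of αKG to succinate, and they need Fe(II) and oxygen. Through this reaction JmjC demethylases remove methyl groups from histone lysines, TET enzymes oxidise 5-methylcytosine, FTO and ALKBH enzymes act on methylated nucleic acids or proteins, and protein hydroxylases modify collagen, HIF1A and other proteins. Succinate, fumarate and 2-hydroxyglutarate compete with αKG at the active site. Enzyme activity therefore depends on metabolite levels as well as on the amount of enzyme, and only mRNA was measured here. The study is concerned with fatty acid oxidation, αKG and the KDM5 demethylases in CMs. The comparison made here asks whether the mRNAs of the enzymes that use αKG differed between CtrlCre and Cpt1bcKO CMs.

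The targeted gene *Cpt1b* was at 1861, 893 and 1443 normalized counts in CtrlCre CMs versus 211, 353 and 285 in Cpt1bcKO CMs. A normalized count is a number of reads scaled by the authors with a size factor per sample and rounded to an integer. Sample sums ranged from 13665354 to 16243545 in the CtrlCre and from 13393411 to 31722217 in the Cpt1bcKO samples. Once mitochondrial-encoded and rRNA genes were left out, they ranged from 3438589 to 3551692 and from 3146414 to 3315777, so that the groups did not overlap. The mitochondrial rRNA *mt-Rnr2* took 72.6% and 80.8% of the sums in samples 2 and 3 of Cpt1bcKO and 61.8% to 64.6% in the others. Values scaled to the total without these genes are given for some of the dioxygenases and for some counts of them. *Xist* was expressed in sample 1 of both groups and Y-linked genes in samples 2 and 3, so the groups were balanced for sex. The cells were isolated by enzymatic perfusion of ventricles and were not sorted. The summed markers of CMs ranged from 253611 to 330341 in the CtrlCre and from 191573 to 226392 in the Cpt1bcKO samples, and those of fibroblasts from 533 to 689 and from 892 to 1138. Of 10 CM markers, 10 had a log2 fold change below 0 and 0 passed the adjusted threshold, and of 9 fibroblast markers tested, 8 were above 0, of which *Lum* and *Col1a1* rose (adjusted *P* = 0.0143 for both, limma with Benjamini–Hochberg adjustment). Endothelial markers summed to between 1711 and 3532 in CtrlCre and between 3229 and 3694 in Cpt1bcKO samples, and immune markers to between 96 and 155 and between 121 and 151. Of 10 endothelial markers, 10 were above 0, of which 2 had an unadjusted *P* value below 0.05. The endothelial sum of 1711 belonged to sample 1 of CtrlCre, and its samples 2 and 3 had 3208 and 3532. Smooth muscle and pericyte markers summed to between 10616 and 13066 and between 9371 and 12112. Most of each sum came from *Des* (9118, 5956 and 6738 in CtrlCre versus 8794, 6221 and 6693 in Cpt1bcKO samples) and *Abcc9*. The sums therefore say little about the other markers of this list. In sample 1 of CtrlCre, *Myh11* and *Rgs5* had their lowest values (14 and 463), whereas *Acta2* had its highest (526). Among 8 markers of this list tested, 4 had a log2 fold change above 0 and 4 below 0. Only 1, *Abcc9*, which CMs express too, passed the adjusted threshold and fell (log2 fold change −0.80, adjusted *P* = 0.0123 by limma). *Acta2* was at −1.20 and *Myh11* at 0.74 (adjusted *P* = 0.0835 and 0.715 by limma). The summed CM markers exceeded all of these sums in every sample. In such bulk samples, fewer cells of a type and less RNA per cell cannot be told apart, and the part of these marker shifts in the values of the dioxygenases was not tested.

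Of the 40 dioxygenase genes, 38 passed the filter of a normalized count of at least 10 in at least 3 samples and entered the fit by limma, for which values were taken as log2(value + 1). On this scale, differences of genes with low values are understated. After adjustment over all 11364 genes tested, 0 of the 38 passed 0.05, whereas 1.57% of all genes did (0.66% higher and 0.906% lower). At an unadjusted *P* value below 0.05, 5 of the 38 (13.2%) were found, and 13.9% of all genes reached it. Of the 5, 1 was higher in Cpt1bcKO CMs (*Alkbh3*, where 6.66% of all genes were called in this direction) and 4 were lower (*Alkbh5*, *Kdm7a*, *Plod2* and *P4htm*, where 7.22% were). The groups did not overlap in 6 of the 38 genes (15.8%), 2 of them higher and 4 lower, compared with 18.7% of all genes tested (9.13% higher and 9.6% lower). Values below 0 were obtained for the log2 fold changes of 26 of the 38 (50.2% of all genes) and values above 0 for 12, with a median of −0.063 (all genes: −0.0013), but the median was 0.048 when samples were scaled to their total without mitochondrial-encoded and rRNA genes, a scaling that shifted the median of all genes to 0.11. It was −0.016 without sample 1 and −0.13 without sample 3 of CtrlCre. When 1 sample was left out in turn, 26 of the 38 kept the sign of their log2 fold change in all 6 fits, and 12 did not (*Alkbh1*, *Hif1an*, *Jmjd1c*, *Kdm2b*, *Kdm4a*, *Kdm4c*, *Kdm5b*, *Ogfod1*, *Ogfod2*, *P4ha1*, *Phf8* and *Tet3*). Only 7, namely *Alkbh3*, *Alkbh5*, *Kdm7a*, *P4ha2*, *P4htm*, *Plod1* and *Plod2*, stayed within 1.5 times their value in all 6. In the fit of all samples, the share of called dioxygenases was thus close to that of other genes. With sex as covariate, 1 of the 38, *Alkbh3*, passed the adjusted threshold (adjusted *P* = 0.0436 by limma), beside 574 of the 11364 genes. In that fit the same 5 dioxygenases (13.2%) had an unadjusted *P* value below 0.05, compared with 20.8% of all genes. The standard errors of the log2 fold changes ranged from 0.137 to 0.461 with a median of 0.186. For 33 of the 38, the 95% interval of the log2 fold change lay within ±1. The exceptions were *Alkbh3*, *Ogfod2*, *Ogfod3*, *Alkbh6* and *P4htm*, of which all but *Alkbh3* averaged below 30 normalized counts. *Kdm8* and *Alkbh4* did not pass the filter. *Kdm8*, a JmjC hydroxylase, had 15, 14 and 8 normalized counts in CtrlCre CMs versus 8, 8 and 3 in Cpt1bcKO CMs, and *Alkbh4* had 0, 5 and 5 against 4, 6 and 5.

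**Figure D1:**
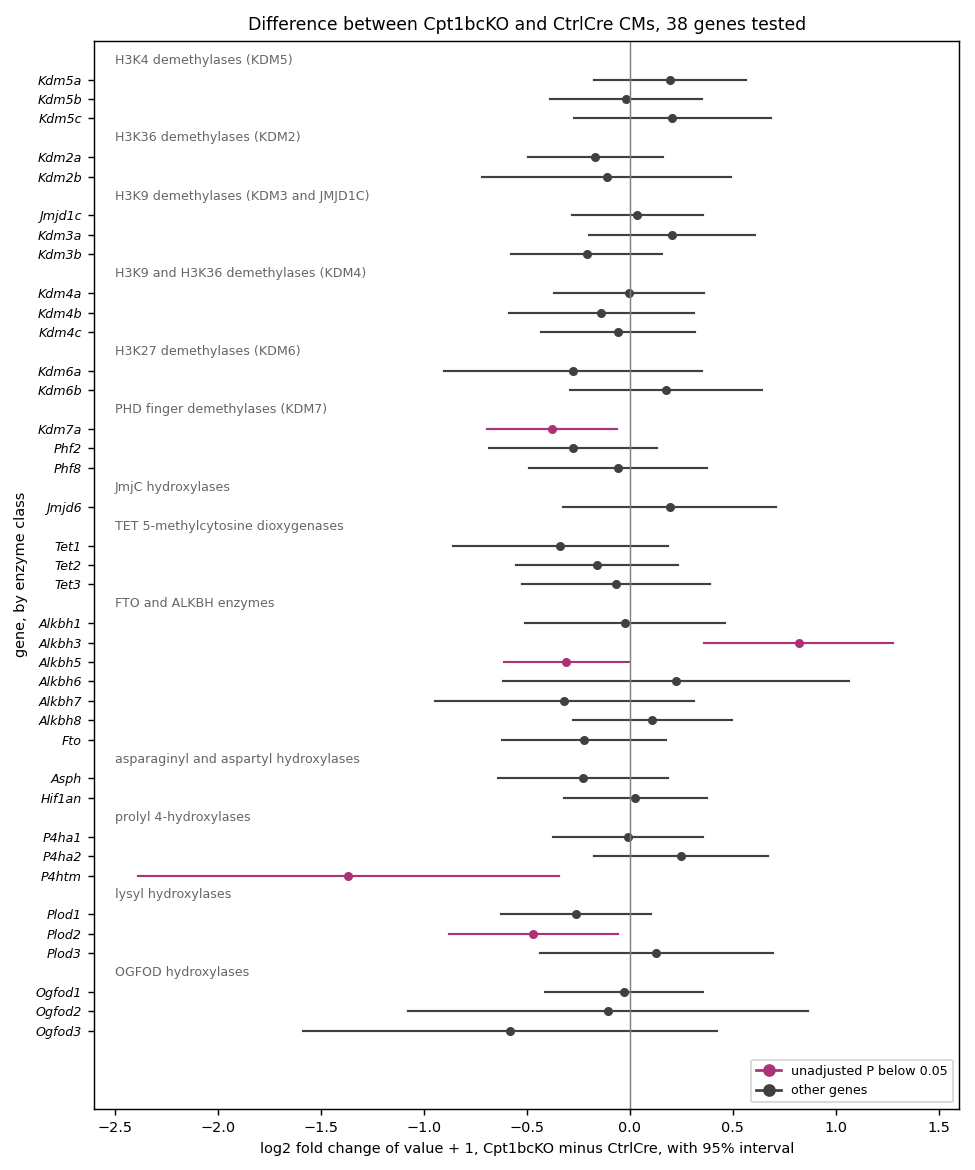
Log2 fold change of value + 1 (Cpt1bcKO minus CtrlCre) of the 38 dioxygenase genes tested, in 13 enzyme classes. Points are estimates from limma and lines are 95% intervals, and those of genes with an unadjusted *P* value below 0.05 are purple. Only *Alkbh3* has an interval above 0, *P4htm*, *Plod2*, *Kdm7a* and *Alkbh5* have intervals below 0, and the other 33 intervals include 0.

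Levels were compared between genes per kilobase of exon. *Asph* was the highest at a mean of 88.2 normalized counts per kilobase over the 6 samples, which is at the 88.4th percentile of the genes tested. *Asph* encodes an aspartyl and asparaginyl hydroxylase of EGF-like domains, but the same locus also gives rise to junctin and junctate, proteins of calcium handling that lack the hydroxylase domain, so the gene value does not separate them. *Alkbh5* (69.0), *Hif1an* (58.2), *P4ha1* (51.2), *Jmjd1c* (46.2) and *Kdm7a* (43.7) followed on the same scale. They encode an RNA demethylase, the asparaginyl hydroxylase of HIF1A, a catalytic subunit of collagen prolyl 4-hydroxylase and 2 JmjC proteins. At the lower end were *Tet1* (4.29), *Kdm8* (3.91) and *Alkbh4* (1.97). In some classes the levels of paralogs differed widely, whereas *Kdm4a*, *Kdm4b* and *Kdm4c* had 24.2, 20.7 and 24.4 normalized counts per kilobase. *Kdm5c* and *Kdm5a* had 30.3 normalized counts per kilobase each, and *Kdm5b* had 7.16. *Tet2* was at 12.1, above *Tet3* with 6.68 and *Tet1* with 4.29.

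**Figure D2:**
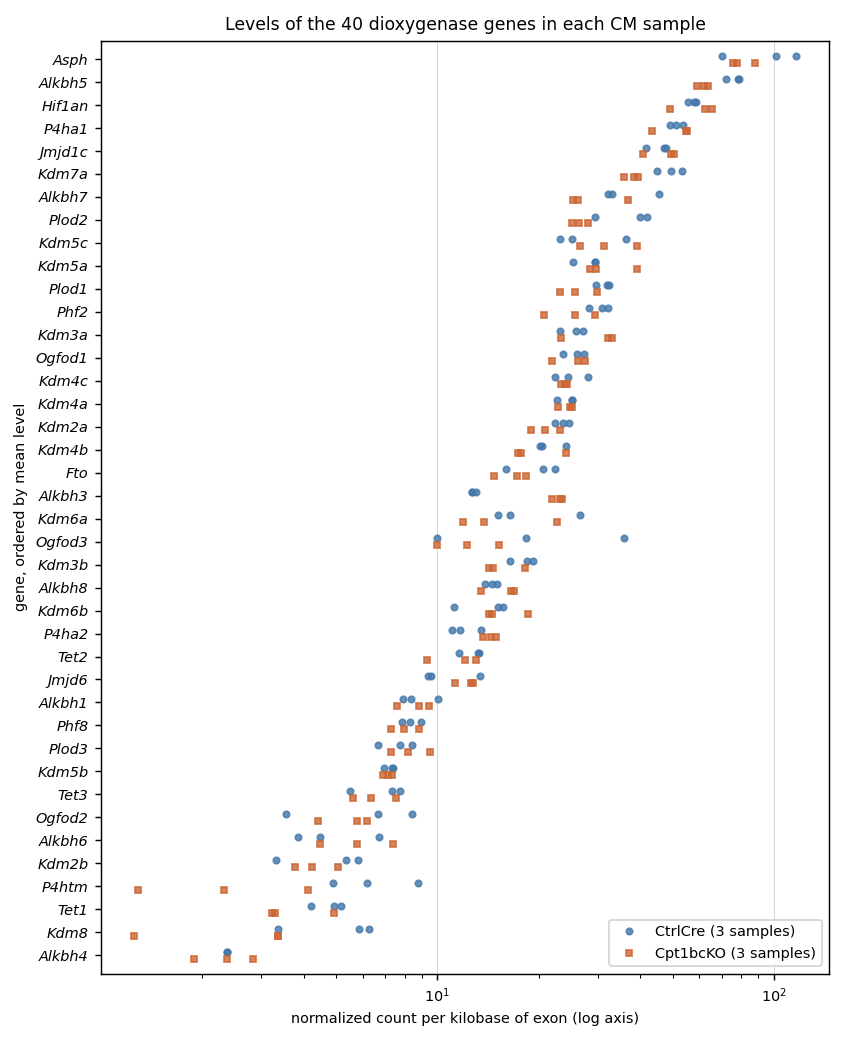
Normalized counts per kilobase of exon (log axis) of the 40 dioxygenase genes in each of 3 CtrlCre (circles) and 3 Cpt1bcKO samples (squares), ordered by the mean over all 6. The genes span from *Alkbh4* (mean 1.97) to *Asph* (mean 88.2), and the points of the 2 groups are interleaved for most genes. The CtrlCre sample of *Alkbh4* with a value of 0 is not drawn.

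The KDM5 enzymes remove di- and trimethylation of H3K4, a mark of active promoters, and are the demethylases the study is about. *Kdm5b* (ENSMUSG00000042207, chr1:134560171-134635285, plus strand) had 115, 122 and 121 normalized counts in CtrlCre CMs versus 121, 118 and 114 in Cpt1bcKO CMs. The groups overlapped, and the highest of the 6 values was 1.07 times the lowest, the narrowest range among the 38 genes. Its log2 fold change was −0.020 (95% interval −0.39 to 0.35, adjusted *P* = 0.974, limma with Benjamini–Hochberg adjustment). *Kdm5a* (ENSMUSG00000030180, chr6:120364124-120444574, plus strand) had 416, 417 and 359 against 419, 403 and 556 normalized counts. Sample 3 of the Cpt1bcKO group was the highest, and the others lay close together. The log2 fold change was 0.20 (95% interval −0.17 to 0.57, adjusted *P* = 0.648 by limma), and it was 0.052 without that sample and 0.13 without sample 3 of CtrlCre. *Kdm5c* (ENSMUSG00000025332, chrX:152233020-152274535, plus strand) had 259, 178 and 165 normalized counts in CtrlCre CMs versus 278, 223 and 189 in Cpt1bcKO CMs. Its log2 fold change was 0.21 (95% interval −0.27 to 0.69, adjusted *P* = 0.725 by limma), and it ranged from 0.062 without sample 1 of Cpt1bcKO to 0.40 without sample 1 of CtrlCre. Without samples 2 or 3 of CtrlCre or sample 3 of Cpt1bcKO it was 0.14, 0.081 and 0.34. In both groups, the *Xist*-expressing sample was the highest. No difference in *Kdm5a*, *Kdm5b* or *Kdm5c* mRNA was detected. In the authors' scaling, the intervals allow log2 differences of up to 0.57, −0.39 and 0.69. Rescaled with mitochondrial-encoded and rRNA genes set aside, the 3 genes were at 0.31, 0.091 and 0.32 (adjusted *P* = 0.404, 0.853 and 0.549 by limma). That scaling moved the median of all genes to 0.11. The differences allowed for *Kdm5a* and *Kdm5c* thus depend on the scaling.

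Of the 16 histone demethylase genes, 16 were tested and 5 had a log2 fold change above 0 and 11 below 0 (median −0.058). *Kdm7a* (ENSMUSG00000042599, chr6:39136623-39206789, minus strand), which acts on H3K9me2 and H3K27me2, had 453, 499 and 538 normalized counts in CtrlCre CMs versus 360, 387 and 397 in Cpt1bcKO CMs. All Cpt1bcKO values were below all CtrlCre values. A log2 fold change of −0.38 was obtained (SE 0.142, 95% interval −0.69 to −0.064, unadjusted *P* = 0.0229, adjusted *P* = 0.260 by limma). The unadjusted *P* value by limma exceeded 0.05 in that scaling to the total (0.0933), with a single prior variance (0.0587) and in 4 of 6 fits that left out 1 sample, the exceptions being sample 1 of CtrlCre and sample 3 of Cpt1bcKO. *Phf2* and *Phf8*, the other PHD finger demethylases, were at −0.28 and −0.058. The H3K9 and H3K36 demethylase genes *Kdm4a*, *Kdm4b* and *Kdm4c* were at −0.0030, −0.14 and −0.058, and the H3K36 demethylase genes *Kdm2a* and *Kdm2b* at −0.17 and −0.11. *Kdm4b* ranged from −0.29 without sample 3 to −0.055 without sample 1 of Cpt1bcKO, *Kdm2b* from −0.36 without sample 3 to 0.039 without sample 1 of CtrlCre, and *Kdm2a* was at −0.098 without sample 1 of Cpt1bcKO. *Kdm3a*, which is induced by hypoxia in many cells, was at 0.20 with 190, 222 and 213 normalized counts against 191, 265 and 272. It was at 0.37 without sample 1, 0.13 without sample 2 and 0.11 without sample 3 of Cpt1bcKO. The other genes of this class, *Kdm3b* and *Jmjd1c*, were at −0.21 and 0.035, and *Kdm3b* was at −0.32 and *Jmjd1c* at −0.0061 without sample 3 of Cpt1bcKO. The unadjusted *P* values of *Kdm3a* and *Phf2* were 0.287 and 0.162, and *Phf2* was at −0.14 without sample 2 of Cpt1bcKO.

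The H3K27 demethylase gene *Kdm6a* (ENSMUSG00000037369, chrX:18162575-18279936, plus strand) had 223, 127 and 138 normalized counts in CtrlCre CMs versus 190, 115 and 100 in Cpt1bcKO CMs. The first sample of each group was again the highest, and the groups overlapped. The log2 fold change was −0.28 (95% interval −0.90 to 0.35, adjusted *P* = 0.712 by limma). It was −0.028 without sample 1 of CtrlCre and −0.55 without sample 1 of Cpt1bcKO, and also moved by more than 1.5 times without sample 2 of CtrlCre or sample 3 of Cpt1bcKO (−0.43 and −0.091). *Kdm6a* and *Kdm5c* are known to escape X inactivation. With sex as covariate, the standard error was reduced from 0.282 to 0.149 in *Kdm6a* and from 0.217 to 0.138 in *Kdm5c*, at adjusted *P* values of 0.325 and 0.438 by limma. *Phf8* (ENSMUSG00000041229, chrX:151520672-151633859, plus strand), the only other X-linked gene of the 40, had 83, 73 and 77 against 68, 74 and 82 normalized counts. Its log2 fold change of −0.058 (adjusted *P* = 0.927 by limma) had no such relation to *Xist*. *Kdm6b*, on chromosome 11, was at 0.18, but at 0.025 without sample 3 and 0.26 without sample 1 of CtrlCre and at 0.054 without sample 2 of Cpt1bcKO.

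Of the TET genes, which encode the oxidases of 5-methylcytosine, *Tet1* had 65, 76 and 80 normalized counts in CtrlCre CMs versus 50, 51 and 76 in Cpt1bcKO CMs. The groups overlapped through sample 3 of Cpt1bcKO. The log2 fold changes were −0.34 for *Tet1*, −0.16 for *Tet2* and −0.068 for *Tet3*, with unadjusted *P* values of 0.181, 0.389 and 0.748. Without sample 3 of Cpt1bcKO, *Tet1* was at −0.53 (unadjusted *P* = 0.0451, adjusted *P* = 0.403 by limma). *Tet2* ranged from −0.26 without sample 2 to −0.017 without sample 1 of Cpt1bcKO, and *Tet3* from −0.22 without sample 3 of CtrlCre to 0.030 without sample 1 of Cpt1bcKO.

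The FTO and ALKBH enzymes act mostly on nucleic acids. *Alkbh3* (ENSMUSG00000040174, chr2:93980550-94010807, minus strand) encodes a demethylase that repairs alkylated bases such as 1-methyladenine and 3-methylcytosine. It had 41, 40 and 40 normalized counts in CtrlCre CMs versus 69, 73 and 74 in Cpt1bcKO CMs. The values differed little within the groups, and all Cpt1bcKO values were above all CtrlCre values. Cpt1bcKO minus CtrlCre gave a log2 fold change of 0.82 (SE 0.207, 95% interval 0.36 to 1.28, unadjusted *P* = 0.00249, adjusted *P* = 0.0928 by limma), and *Alkbh3* ranked 305 of 11364 genes by *P* value. The adjusted *P* value ranged from 0.0436, with sex as covariate, to 0.331 over the alternatives. An antisense gene of *Alkbh3* was listed with a mean of 3.17 normalized counts. *Alkbh5* (ENSMUSG00000042650, chr11:60537978-60558512, plus strand), the demethylase of N6-methyladenosine in mRNA, had 472, 469 and 432 normalized counts in CtrlCre CMs versus 372, 353 and 382 in Cpt1bcKO CMs. The groups did not overlap here either. This corresponds to a log2 fold change of −0.31 (SE 0.137, 95% interval −0.61 to −0.0063, unadjusted *P* = 0.0462, adjusted *P* = 0.35 by limma). The unadjusted *P* value exceeded 0.05 whichever sample was left out (0.0585 to 0.127 by limma), without a filter on low values (0.0512), with a single prior variance (0.0951) and in the scaling without mitochondrial-encoded and rRNA genes, where the log2 fold change was −0.20 (0.178). *Fto*, the other demethylase of this mark, had 269, 209 and 292 against 192, 224 and 239 normalized counts. These values overlapped, and its log2 fold change was −0.22 (adjusted *P* = 0.627 by limma). It was −0.12 without sample 3 and −0.36 without sample 2 of CtrlCre, and −0.13 without sample 1 of Cpt1bcKO. *Alkbh7*, whose product is mitochondrial, was at −0.32 with an unadjusted *P* value of 0.287, and *Alkbh1* and *Alkbh8*, which act on tRNA, were at −0.023 and 0.11. *Alkbh7* was at −0.16 without sample 1 of CtrlCre and −0.49 without sample 1 of Cpt1bcKO, and *Alkbh8* ranged from 0.051 without sample 3 to 0.21 without sample 2 of Cpt1bcKO.

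**Figure D3:**
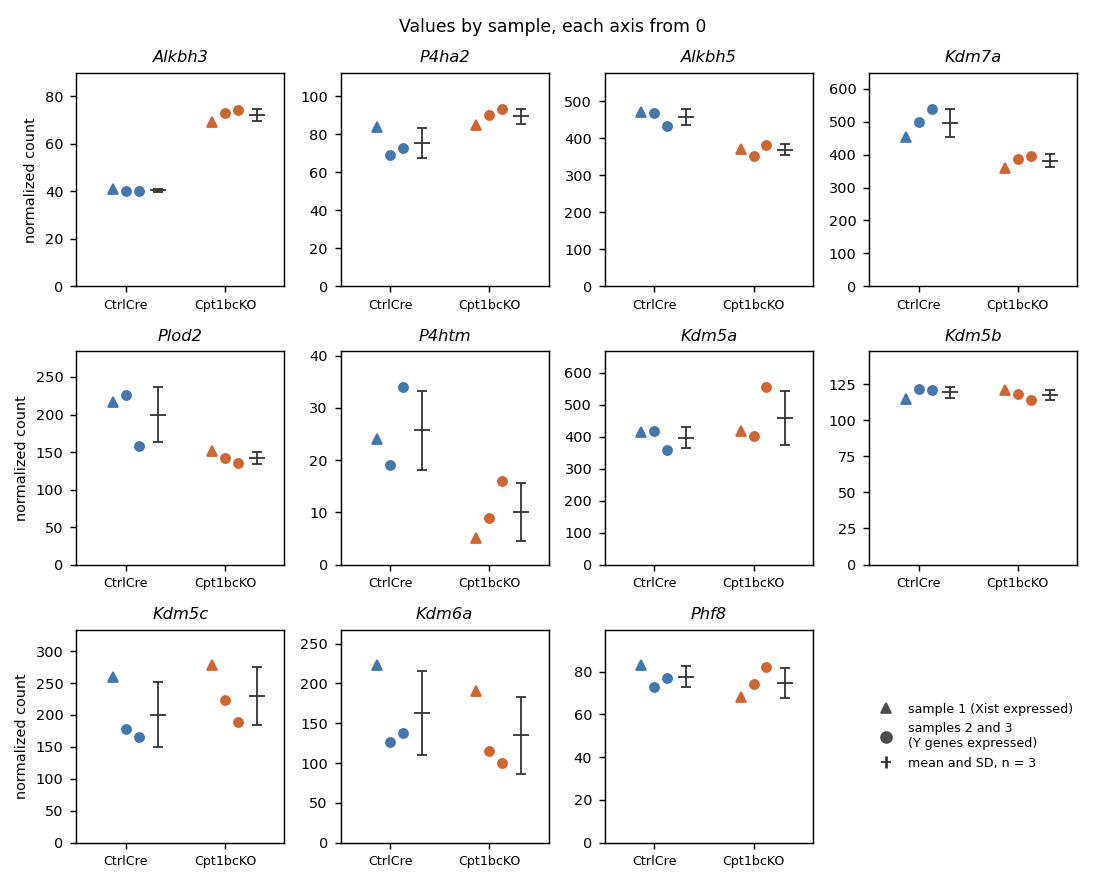
Normalized counts in each sample, with every axis from 0, for the 6 dioxygenase genes whose groups did not overlap (*Alkbh3*, *P4ha2*, *Alkbh5*, *Kdm7a*, *Plod2*, *P4htm*), the KDM5 genes and the X-linked genes. Triangles are samples with *Xist*, circles are samples with Y-linked genes, and bars are mean and SD (n = 3). *Alkbh3* is at 40 to 41 in CtrlCre and 69 to 74 in Cpt1bcKO, and in *Kdm5c* and *Kdm6a* the triangle is the highest point of each group.

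The protein hydroxylases include enzymes that modify collagen in the endoplasmic reticulum. *Plod2* (ENSMUSG00000032374, chr9:92542223-92608428, plus strand) encodes the lysyl hydroxylase of collagen telopeptides. It had 216, 226 and 158 normalized counts in CtrlCre CMs versus 151, 142 and 135 in Cpt1bcKO CMs. The groups did not overlap, with 7 normalized counts between sample 3 of CtrlCre and sample 1 of Cpt1bcKO. On the log2 scale the difference was −0.47 (SE 0.185, 95% interval −0.88 to −0.057, unadjusted *P* = 0.0293, adjusted *P* = 0.286 by limma). For *Plod2*, the unadjusted *P* value by limma exceeded 0.05 in that scaling (0.0832), with a single prior variance (0.0522) and in 4 of 6 fits that left out 1 sample, the exceptions being sample 3 of CtrlCre and sample 1 of Cpt1bcKO. *Plod1* was at −0.26 and *Plod3* at 0.13, with unadjusted *P* values of 0.139 and 0.624, and *Plod3* ranged from 0.031 without sample 3 to 0.22 without sample 1 of Cpt1bcKO. *P4ha2* (ENSMUSG00000018906, chr11:54100924-54131662, plus strand), a catalytic subunit of collagen prolyl 4-hydroxylase, had 84, 69 and 73 normalized counts in CtrlCre CMs versus 85, 90 and 93 in Cpt1bcKO CMs. The groups were separated by 1 normalized count only. A log2 fold change of 0.25 was obtained (SE 0.190, 95% interval −0.17 to 0.67, adjusted *P* = 0.609 by limma). Its paralog *P4ha1* had 221, 210 and 202 against 226, 227 and 179 normalized counts and was at −0.0099. *P4htm* (ENSMUSG00000006675, chr9:108578862-108597667, minus strand) encodes a transmembrane prolyl 4-hydroxylase that acts on HIF1A rather than on collagen. It had 24, 19 and 34 normalized counts in CtrlCre CMs versus 5, 9 and 16 in Cpt1bcKO CMs. The values were low but did not overlap. Cpt1bcKO minus CtrlCre gave a log2 fold change of −1.37 (SE 0.461, 95% interval −2.39 to −0.35, unadjusted *P* = 0.0136, adjusted *P* = 0.208 by limma), and −0.99 without sample 1 of Cpt1bcKO. Without sample 3 of CtrlCre its unadjusted *P* value by limma was 0.0646. *Hif1an*, whose product hydroxylates HIF1A on asparagine, had 387, 368 and 383 against 411, 325 and 432 normalized counts and a log2 fold change of 0.027. *Asph* was at −0.23 (1877, 1132 and 1631 against 1411, 1219 and 1253), and *Ogfod3* had the lowest log2 fold change after *P4htm*, −0.58, with 47, 24 and 13 against 20, 16 and 13. Both rest on single samples, as *Asph* was at −0.073 without sample 1 and −0.44 without sample 2 of CtrlCre, and *Ogfod3* at −0.13 without sample 1 and −1.02 without sample 3 of CtrlCre (unadjusted *P* = 0.0259 for *Asph* without sample 2 and 0.0374 for *Ogfod3* without sample 3, adjusted *P* = 0.324 and 0.40 by limma).

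**Figure D4:**
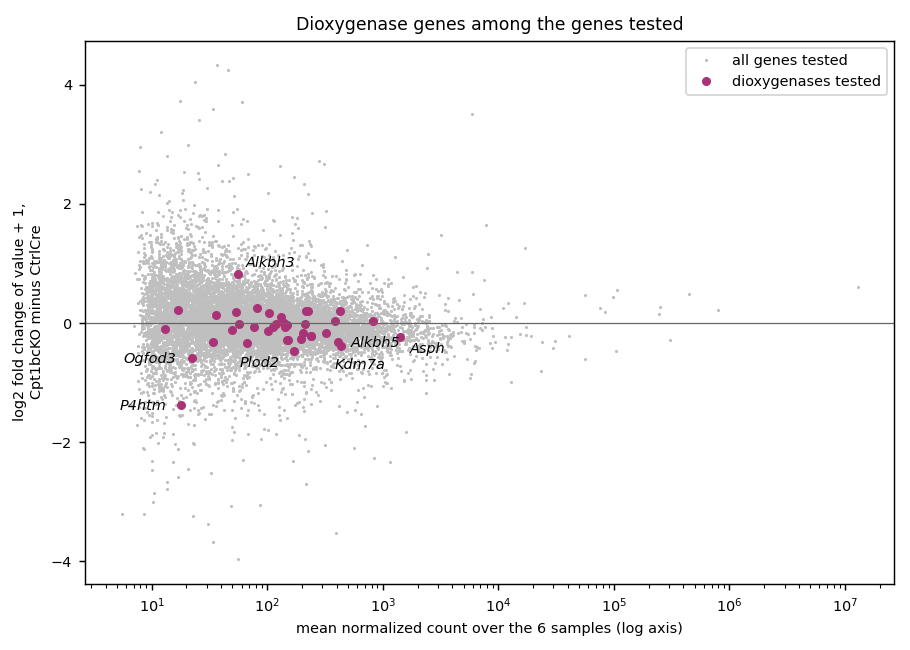
Log2 fold change of value + 1 against mean normalized count over 6 samples (log axis) for 11364 genes tested (grey) and the 38 dioxygenase genes among them (purple). The dioxygenases lie between −1.37 (*P4htm*) and 0.82 (*Alkbh3*), within the cloud of genes of like abundance.

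For genes around these enzymes, counts and medians are given beside those of the dioxygenases. Of the substrates of the collagen hydroxylases, all 12 collagen genes tested had a log2 fold change above 0 (median 1.10), and 10 had an unadjusted *P* value below 0.05 (6.66% of all genes in this direction). *Col1a1* rose from 45, 69 and 64 to 162, 141 and 141 normalized counts (log2 fold change 1.32, adjusted *P* = 0.0143 by limma), and *Col5a1* and *Col6a3* rose by 1.15 and 1.25 (both adjusted *P* = 0.0477 by limma). The prolyl 4- and lysyl hydroxylases *P4ha1*, *P4ha2*, *Plod1*, *Plod2* and *Plod3* had a median of −0.0099, and it was −0.14 over 6 genes when *P4htm* was counted with them. Of 10 partners of collagen hydroxylation tested, such as chaperones and lysyl oxidases, 1 was higher (*Loxl1*) and 2 were lower at an unadjusted *P* value below 0.05. This is 30% in both directions, beside 13.9% of all genes. *Hspa5* had the lowest *P* value of these partners (log2 fold change −0.85, adjusted *P* = 0.0612 by limma). Fibroblast markers were higher in the same samples, as given above, and *Col1a1* is one of them. Among 13 tested of 25 other αKG-dependent dioxygenases, 2 were higher and 2 lower at an unadjusted *P* value below 0.05, or 30.8% in both directions beside 13.9% of all genes. *Egln3*, a HIF prolyl hydroxylase, had 203, 256 and 178 against 161, 131 and 104 normalized counts (log2 fold change −0.69, adjusted *P* = 0.173 by limma), and the histone demethylase gene *Hr* 44, 78 and 21 against 142, 89 and 88 (1.29, adjusted *P* = 0.184 by limma). Of the enzymes that make or use αKG, succinate, fumarate or 2-hydroxyglutarate, 25 were tested, of which 20 had a log2 fold change below 0 (median −0.16) and 3 had an unadjusted *P* value below 0.05, all lower (12%, beside 7.22% of all genes in this direction). *Gpt* and *Gpt2*, alanine aminotransferases, which interconvert αKG and glutamate reversibly, were at −0.73 and −0.53 (adjusted *P* = 0.177 and 0.239 by limma). Histone methyltransferases that oppose the demethylases had a median of 0.016 over 23 genes, with 1 unadjusted *P* value below 0.05 (4.35%), and DNA methyltransferases with RNA N6-methyladenosine writers and readers a median of 0.050 over 17 genes, also with 1 (5.88%, beside 13.9% of all genes for both lists). Calcium handling genes, listed because of junctin, had log2 fold changes below 0 in 8 of 8 (median −0.42), and 4 had an unadjusted *P* value below 0.05, all lower (50%, beside 7.22% of all genes in this direction), with *Pln* at −0.85 (adjusted *P* = 0.0678 by limma). The CM markers were lower in the same samples, with a median of −0.38 over 10 genes, and *Pln* and *Ryr2* are in both lists.

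**Figure D5:**
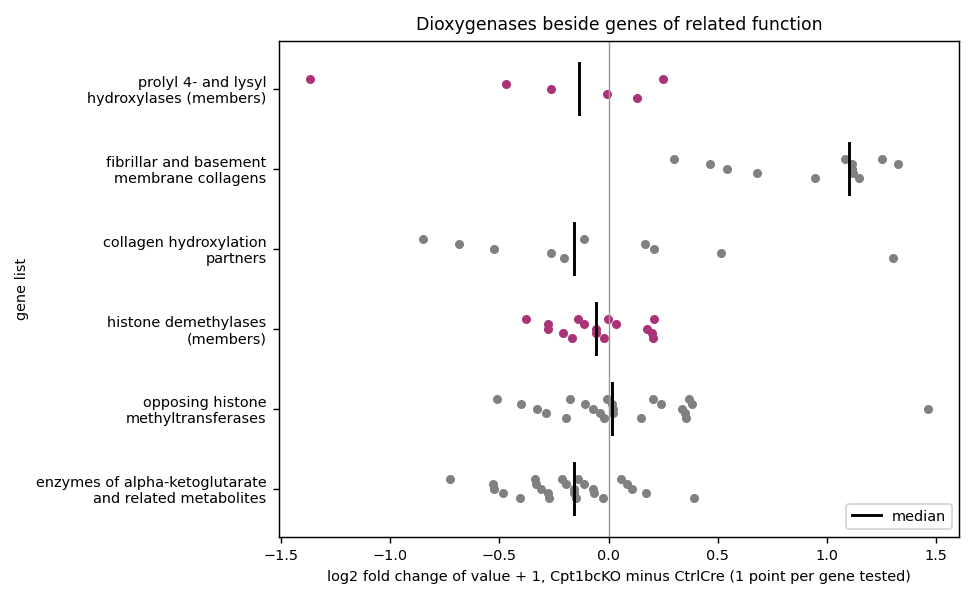
Log2 fold change of value + 1 (Cpt1bcKO minus CtrlCre) of single genes in 6 lists, with dioxygenases in purple, other genes in grey and the median of each list as a black line. The collagens lie at 0.30 to 1.32, the prolyl 4- and lysyl hydroxylases at −1.37 to 0.25 and the histone demethylases at −0.38 to 0.21.

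Promoter sequences were available from RefSeq (GRCm38.p6) for 32 of the 40 genes, as windows of 250 bases before and 50 bases after the annotated start. The RefSeq start lay 295 bases from the deposited gene start in *Alkbh5*, 724 in *Kdm2b*, 11794 in *Tet1* and 14714 in *Tet3*. In the other genes it lay at most 234 bases away. The windows are shown for the 4 genes with an unadjusted *P* value below 0.05 that had one, whereas *Plod2* had none. Capitals mark the letters ACGTG and GCGTG, the core of the hypoxia response element, which was searched because *Hif1an* and *P4htm* encode hydroxylases of HIF1A, and CCGGAAG, an ETS family motif, on either strand. The windows are chr2:94010681-94010980 (minus strand) for *Alkbh3*, chr11:60537433-60537732 (plus strand) for *Alkbh5*, chr6:39206724-39207023 (minus strand) for *Kdm7a* and chr9:108597563-108597862 (minus strand) for *P4htm*.
Alkbh3: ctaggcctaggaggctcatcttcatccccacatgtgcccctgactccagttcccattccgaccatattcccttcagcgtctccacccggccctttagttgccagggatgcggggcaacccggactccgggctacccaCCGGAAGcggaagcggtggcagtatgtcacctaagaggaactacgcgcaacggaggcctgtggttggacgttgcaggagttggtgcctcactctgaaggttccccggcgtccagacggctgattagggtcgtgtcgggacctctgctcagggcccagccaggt
Alkbh5: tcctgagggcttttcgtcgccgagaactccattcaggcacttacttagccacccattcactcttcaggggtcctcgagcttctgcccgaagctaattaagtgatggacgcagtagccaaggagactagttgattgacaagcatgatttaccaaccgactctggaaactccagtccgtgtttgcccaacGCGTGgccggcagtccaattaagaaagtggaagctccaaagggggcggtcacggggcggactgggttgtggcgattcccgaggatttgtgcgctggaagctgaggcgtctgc
Kdm7a: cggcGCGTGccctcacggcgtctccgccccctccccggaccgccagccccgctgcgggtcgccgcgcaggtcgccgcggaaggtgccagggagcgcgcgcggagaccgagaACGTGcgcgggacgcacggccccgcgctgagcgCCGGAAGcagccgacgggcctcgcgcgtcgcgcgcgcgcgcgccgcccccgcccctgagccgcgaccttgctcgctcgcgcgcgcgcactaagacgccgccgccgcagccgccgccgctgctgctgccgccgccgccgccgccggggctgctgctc
P4htm: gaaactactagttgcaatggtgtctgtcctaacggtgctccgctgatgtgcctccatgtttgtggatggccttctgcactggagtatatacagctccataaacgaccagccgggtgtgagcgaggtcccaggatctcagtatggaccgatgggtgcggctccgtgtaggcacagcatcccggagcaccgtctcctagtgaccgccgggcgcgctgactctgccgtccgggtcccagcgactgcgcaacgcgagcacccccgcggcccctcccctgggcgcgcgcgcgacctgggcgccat

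The core of the hypoxia response element was found in 19 of the 32 windows (59.4%) and in 62.4% of 10554 windows of genes in the table. CCGGAAG was found in 8 of 32 (25%) and in 17.7% of all windows. Thus *Kdm7a* had 2 matches of the hypoxia core and 1 of CCGGAAG, *Alkbh5* had 1 of the core, *Alkbh3* had 1 of CCGGAAG, and *P4htm* had neither. *P4ha2*, *Plod3* and *Alkbh6* had 4 matches of the core each. *Kdm6a* also had 4, but 1 CACGTG in its window was counted on each strand. The other windows had fewer. A match describes the letters of the window and not the binding of a factor. The GC content of the windows had a median of 61.3%, compared with 60.7% of all windows. Counting may also depend on neighbours, since 24 of the 40 genes overlap an annotated gene and 12 a listed gene on the opposite strand. Examples are *Kdm2b* with *Rnf34* (mean of 112.5 normalized counts), *Jmjd6* with *Mettl23* (61.5) and *Kdm5a* with *Ccdc77* (22.0). Reads in such overlaps were excluded, or assigned if the counting used strand, which is not given in the sources used here.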

How the data were processed

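RNA of 3 samples each of ventricular CMs of CtrlCre and Cpt1bcKO mice was sequenced from stranded total RNA libraries, with littermates as controls. Per the submitters' processing notes, tools were FastQC (0.11.8), Trimmomatic (0.36), STAR (2.5.4b), featureCounts (1.6.0) and DESeq2 (1.14.1) on mm10 (GRCm38). The authors excluded reads on several genes or regions, divided counts by size factors and rounded them, so the deposited per-sample values are a score of normalized counts and no count model was used. The authors' group means, their log2 fold changes and their p-values and adjusted p-values in the deposited table come from their own comparison and were not used. The annotation release and the use of strand in counting are not given in the sources used here.

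Values were taken as log2(value + 1) in genes with at least 10 in at least 3 samples and fitted with limma (3.58.1, R 4.3.3; lmFit, eBayes with trend). Tests were two-sided, with Benjamini–Hochberg adjustment over 11364 genes and a threshold of 0.05. The fit was tested on simulated counts with 1 dispersion for all genes. The simulation had no differences in sex or mitochondrial rRNA between samples, so it does not cover these features of the data. Lists were described by counts and medians without a test. The dioxygenase genes and all gene lists were chosen with earlier results of these data known. Full values were given for dioxygenase genes with an unadjusted *P* value below 0.05, with groups that did not overlap, of the KDM5 family or on the X chromosome. Of other lists, genes passing the adjusted threshold or else the 2 lowest *P* values were named, where a result turned on them. Exon lengths came from GENCODE vM21, in which 30 of the 40 genes have the same span as in the deposited table, whose coordinates are given. Promoter windows came from RefSeq (GRCm38.p6). Alternatives were a replicate block, sex as covariate, pseudocounts of 0.5 and 5, other filters and scalings, a single prior variance and leaving out each sample in turn. Depth in reads was not recovered from the rounded values, so a normalized count below about 10 is imprecise. Further steps used Python 3.11.15, pandas 2.3.3, numpy 2.4.6 and, for plots, matplotlib 3.10.9.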

Additional observations from a re-analysis of the deposited data

How the results depend on the processing

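The number of genes with an adjusted *P* value below 0.05 was 178 as reported, 574 with sex as covariate, 41 with a single prior variance and 42 to 329 when 1 sample was left out (42 without sample 2 and 329 without sample 1 of Cpt1bcKO). Of the dioxygenases, 1 (*Alkbh3*) passed with sex as covariate, and 0 passed under the other alternatives. Dioxygenases lower at an unadjusted *P* value below 0.05 numbered 1 when scaled to the sample total after removal of mitochondrial-encoded and rRNA genes, 1 with a single prior variance, 2 with samples 2 and 3 only (an alternative added after seeing the data) and 1 to 3 when 1 sample was left out, compared with 4.44%, 6.06%, 9.35% and 4.82% to 10.8% of all genes. They include genes not called with all samples, namely *Asph*, *Ogfod3* and *Tet1* in single fits without 1 sample and *Phf2* with samples 2 and 3 only. Groups without overlap numbered 2 to 5 (higher) and 4 to 10 (lower) when 1 sample was left out, and 7 and 10 (18.4% and 26.3%) with samples 2 and 3 only, since fewer samples overlap less. Of all genes, 12.3% to 17.8% were higher and 12.5% to 19.6% lower without overlap when 1 sample was left out, and 22.7% and 24.4% with samples 2 and 3 only. The scaling to that total gave a median of 0.048 and turned *Kdm5b* to 0.091 and *Phf8* to 0.052. It moved the median of all genes from −0.0013 to 0.11, so these changes of sign are not particular to the 2 genes. *Phf8* was 0.055 with samples 2 and 3 only. When 1 sample was left out, *Kdm5b* ranged from −0.046 to 0.0024 (without sample 3 of Cpt1bcKO), and *Phf8* from −0.13 to 0.0062 (without sample 1 of Cpt1bcKO). The causes were not tested. *Cpt1b* had an adjusted *P* value of 0.0563 by limma with a single prior variance. *P4htm* was removed by a filter of 10 in every sample.

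With the replicate number as a block (replicate block), 603 genes and 0 dioxygenases had an adjusted *P* value below 0.05, and the same 5 dioxygenases (13.2%) an unadjusted one, compared with 20.8% of all genes. Deviations of same-numbered samples correlated across genes with *r* = 0.376, 0.255 and 0.0684 (other pairs: −0.329 to 0.147), and the labels do not tie the numbers, so they were not taken as pairs. Sample 3 of CtrlCre correlated best with sample 2 of Cpt1bcKO.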

Other observations

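*Kdm5d* and *Uty*, the Y-linked homologues of *Kdm5c* and *Kdm6a*, are not among the 40 genes and were looked at after the values of *Kdm5c* had been seen. *Kdm5d* had 134 and 136 normalized counts in samples 2 and 3 of CtrlCre and 103 and 166 in those of Cpt1bcKO, and 1 and 0 in the *Xist*-expressing samples. The sum of *Kdm5c* and *Kdm5d* per kilobase of exon was 36.5, 33.9 and 32.2 in CtrlCre and 39.1, 38.2 and 37.5 in Cpt1bcKO samples. The groups did not overlap, with Cpt1bcKO higher. Of single genes, 9.13% were higher without overlap, but a sum formed after values had been seen is not directly comparable with a single gene. The sum of *Kdm6a* and *Uty* was 26.6, 52.8 and 46.5 against 22.7, 46.3 and 47.3 and was lowest in the *Xist*-expressing sample of each group, in which *Kdm6a* alone was the highest. The sum of all 4 KDM5 genes was 69.5 ± 4.13 in CtrlCre and 77.8 ± 5.21 in Cpt1bcKO samples (mean ± SD, n = 3). It was 72.8, 70.7 and 64.8 against 76.0, 73.7 and 83.7 and did not overlap, whereas the sum of *Kdm5a*, *Kdm5b* and *Kdm5c* was 72.8, 61.9 and 55.9 against 76.0, 67.0 and 72.7 and overlapped. These sums were not tested, and no share of non-overlap was obtained for sums of other genes, so no difference in KDM5 mRNA is read from them.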
